A study of Mus musculus with 12 samples.

Results

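The second day in culture of wild-type (WT) mouse monocytes with GM-CSF and IL-4 was followed by comparing 2 libraries of day 2 with 2 libraries of day 1, which are 4 of the 12 libraries of the series and were chosen by their labels. All cells came from bone marrow of mice on a C57BL/6 background. The day 1 and day 2 groups were cultured with GM-CSF plus IL-4 for 1 and for 2 days, and sorted WT monocytes that were not cultured (2 libraries) give the starting level. Nr4a3 KO monocytes, which lack the orphan nuclear receptor NR4A3, were cultured for the same times (2 libraries a day) and are given for comparison. The series title places the study around the part of NR4A3 in making dendritic cells from monocytes. The labels give no cytokine dose, sorting gate, age or sex of the mice, no allele of the KO, and no number of mice per library.

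GM-CSF signals through JAK2 and STAT5 and keeps monocytes alive, and IL-4 signals through STAT6 and turns them away from a macrophage fate. Monocytes kept in both cytokines become dendritic cells, which sample antigen while immature and, on maturing, raise costimulatory molecules for T cells and the lymph node homing receptor CCR7. Maturation is linked to NF-kB, whose noncanonical branch runs through the kinase NIK (Map3k14) to NFKB2 and RELB.

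The day of culture and the experiment cannot be told apart. By the dates in the file names, both day 1 libraries share their experiments with the sorted monocytes, while the day 2 libraries came from 2 later experiments, and the names for day 1 replicate 2 say 16 hours where the label says 1 day. The p-values rest on the spread between replicate libraries within the 6 groups of the series, which also come from different experiments. They do not separate the day from the difference between the earlier and the later experiments. Reads in genes numbered 11996973 and 12185629 at day 1 and 8770888 and 7787493 at day 2. Although shallower, the day 2 libraries had reads for more genes (17687 and 17407, against 14253 and 15911), and 3734 and 3611 of those genes had only 1 to 3 reads, against 952 and 1651. In all, 1215 genes had 0 reads in both day 1 libraries and a read in both day 2 libraries, against 106 the other way. The same held in KO cells, with 1031 and 112 genes. WT day 2 replicate 1 carried Xist, which coats the silenced X chromosome, at 885 CPM and no reads of the Y-linked gene Ddx3y, whereas replicate 2 had 1.01 and 63.0 CPM and both day 1 libraries had no Xist. Of the defining markers, the dendritic cell integrin Itgax stood at 1642 and 1264 CPM at day 1 and at 1477 and 987 CPM at day 2. The MHC class II gene H2-Ab1 stood at 2068 and 1460 CPM and then at 2512 and 2303 CPM, against 20.5 and 41.2 CPM in monocytes. Itgax and H2-Ab1 thus stood above their monocyte levels at day 1. So did Zbtb46 (35.1 and 30.1 CPM, over 0.383 and 0.211 CPM) and Cd209a (122 and 80.0 CPM, over 10.7 and 16.7 CPM). Flt3 went the other way, from 13.6 and 21.8 CPM before culture down to 0 and 0.979 CPM. By day 2 Cd209a had dropped to 7.13 and 45.0 CPM, without passing the test (edgeR adjusted p = 0.204), while Zbtb46 held 73.7 and 97.1 CPM.

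Between day 1 and day 2, 656 of 14034 genes tested rose (4.67%) and 493 fell (3.51%). Among the genes that rose were 21 of 31 tested genes of dendritic cell maturation, 10 of 26 of sterol and fatty acid synthesis, 8 of 23 of NF-kB and 7 of 18 ligands for T cells. Among those that fell were 11 of 22 genes of the unfolded protein response and its chaperones and 6 of 17 complement and coagulation genes. Levels are in CPM, gene counts divided by library sizes normalized with TMM, and 2 values joined by "and" are replicates 1 and 2. Changes are log2 fold changes of day 2 over day 1 with ± SE, and adjusted p-values are from the quasi-likelihood test of edgeR with Benjamini-Hochberg adjustment over all genes tested, at a threshold of 0.05. The median change of all genes was 0.03. The sign of the median turned without at least 1 library in 17 of the 40 gene lists used below, and that range stands beside such a median where it is printed. Leaving out 1 library lowered the counts to 119 higher and 62 lower when WT day 1 replicate 1 was dropped, to 109 and 64 for WT day 1 replicate 2, to 234 and 50 for WT day 2 replicate 1, and to 225 and 45 for WT day 2 replicate 2. Called throughout, without each of the 4 libraries in turn, were 85 genes that rose (0.606%) and 25 that fell (0.178%). Such genes are said below to have kept their call. In bulk RNA, a fall cannot be told apart from a loss of cells that carry the transcript, and a rise cannot be told apart from a gain of such cells.

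**Figure D1:**
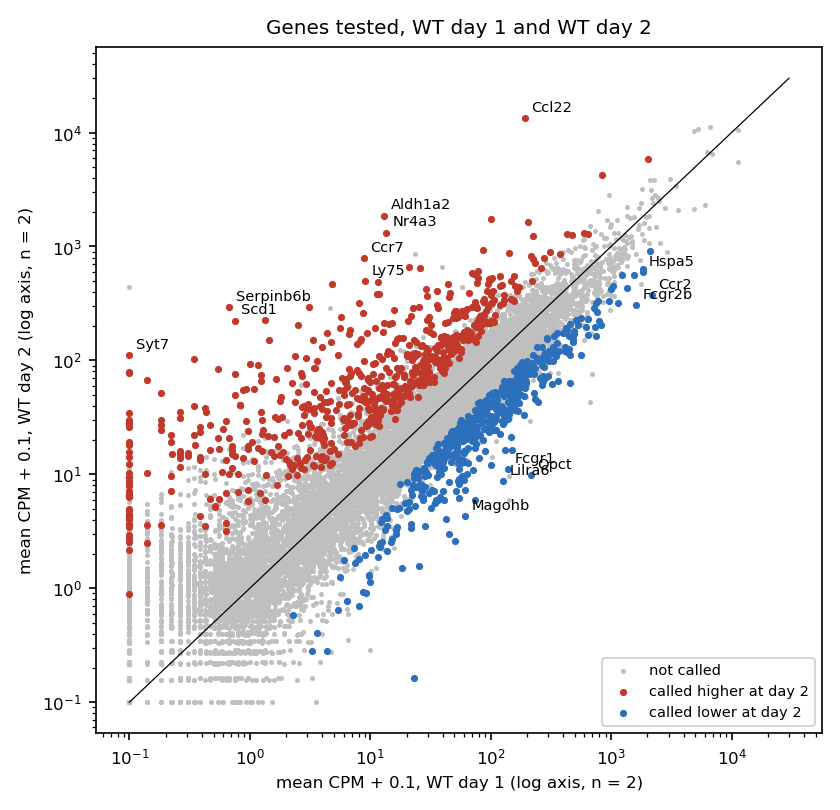
Each point is 1 of 14034 genes, with the mean CPM (+ 0.1, log axes) of 2 WT day 1 libraries across and of 2 WT day 2 libraries up; red genes (656) were called higher at day 2, blue genes (493) lower, and the line marks equal levels. Ccl22 lies far above the line at high expression, and a column of red genes at the left edge had no reads at day 1.

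Nr4a3 itself (chr4:48045153-48086447, plus strand, GRCm38), the gene the study removed in its KO, rose late. It stood at 0.307 and 0 CPM in WT monocytes, at 16.5 and 10.4 CPM at day 1 and at 1287 and 1358 CPM at day 2 (6.62 ± 1.43, adjusted p = 0.0213). The groups were far apart, yet the call was lost without any 1 of the 4 libraries, with adjusted p up to 0.17 without WT day 1 replicate 2. In the KO, reads at Nr4a3 gave 6.58 and 0 CPM at day 1 and then 39.0 and 19.3 CPM. Of its relatives, Nr4a1 was at 0.496 and 0.979 CPM at day 1 and at 0.690 and 1.26 CPM at day 2, after 825 and 111 CPM in monocytes. Nr4a2 went from 3.72 and 1.06 CPM to 12.3 and 10.5 CPM, which did not pass the test (adjusted p = 0.358).

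The promoters of Nr4a3, of a gene with no reads at day 1 (Bcl2l14) and of 2 NF-kB genes that rose (Rel and Nfkb2) are shown because Nr4a3 is the gene the study removed and the other 3 rose and hold motif matches. They are the 250 bases before the start of the RefSeq transcript (GRCm38.p6), read 5′ to 3′ on the gene's own strand, with motif matches in capitals.
Nr4a3 (chr4:48045055-48045304, plus strand): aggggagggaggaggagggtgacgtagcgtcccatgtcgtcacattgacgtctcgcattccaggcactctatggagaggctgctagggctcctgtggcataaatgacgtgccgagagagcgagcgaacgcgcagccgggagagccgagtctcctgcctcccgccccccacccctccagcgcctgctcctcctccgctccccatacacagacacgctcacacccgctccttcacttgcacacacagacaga
Bcl2l14 (chr6:134396079-134396328, plus strand): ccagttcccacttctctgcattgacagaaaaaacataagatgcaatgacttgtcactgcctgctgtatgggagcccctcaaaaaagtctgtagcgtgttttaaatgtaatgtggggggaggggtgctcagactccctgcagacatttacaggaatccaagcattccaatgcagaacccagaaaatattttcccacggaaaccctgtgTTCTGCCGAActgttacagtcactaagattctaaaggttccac
Rel (chr11:23770970-23771219, minus strand): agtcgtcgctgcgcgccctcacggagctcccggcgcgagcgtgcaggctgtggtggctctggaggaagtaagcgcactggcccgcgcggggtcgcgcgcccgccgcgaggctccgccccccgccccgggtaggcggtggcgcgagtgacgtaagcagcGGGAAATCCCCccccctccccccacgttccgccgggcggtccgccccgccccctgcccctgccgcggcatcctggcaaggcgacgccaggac
Nfkb2 (chr19:46304487-46304736, plus strand): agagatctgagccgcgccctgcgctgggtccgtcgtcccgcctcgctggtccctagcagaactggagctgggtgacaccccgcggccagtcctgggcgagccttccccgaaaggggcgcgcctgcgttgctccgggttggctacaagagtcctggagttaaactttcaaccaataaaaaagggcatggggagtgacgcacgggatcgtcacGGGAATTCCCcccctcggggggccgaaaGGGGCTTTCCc
The motifs searched on both strands were the NR4A element NBRE (AAAGGTCA), AP-1 (TGANTCA), and, by name, the NF-kB consensus, the STAT6 site with a spacer of 4 bases and the ISRE core. The capitals in Bcl2l14 are a STAT6-type match that starts 43 bases before the start. In Rel, 2 NF-kB matches that overlap begin 92 and 91 bases before it, and in Nfkb2 the capitals are NF-kB matches that begin 39 and 11 bases before it. Rel and Nfkb2 were chosen after their matches were seen. None of the 5 motifs matched in these 250 bases of Nr4a3, H2-M2, Plppr4, Klra2 or Hacd1. Such matches are common: in these 250 bases, an NF-kB match was found in 7.60% of 513 promoters of genes that rose, 6.46% of 387 that fell and 5.57% of all 9769 tested genes with a promoter in the table. The NBRE was found in 0.585%, 0.775% and 0.809% in the same order, and the STAT6-type match in 5.07%, 6.72% and 4.74%. With the 50 bases after the start added, the NF-kB shares were 8.58%, 7.49% and 6.56%. The 95% exact binomial intervals of the shares in the genes that rose (5.46% to 10.2% for NF-kB and 0.121% to 1.70% for the NBRE, in 250 bases) held the value of all genes in both cases.

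Of 31 genes of dendritic cell maturation tested, 21 rose and none fell, with a median change of 2.98, where 4.67% of all genes rose. Ccl22, a chemokine that draws regulatory and type 2 T cells, stood at 160 and 222 CPM at day 1 and at 10746 and 15972 CPM at day 2 (6.13 ± 0.68, adjusted p = 0.00132), the largest gain in CPM of any gene the naming rule admits. Serpinb9, an inhibitor of granzyme B, went from 3.80 and 5.63 CPM to 411 and 516 CPM (6.62 ± 0.56, adjusted p = 0.000327). Serpinb6b, another intracellular serpin, went from 0.743 and 0.408 CPM to 229 and 354 CPM (8.96 ± 0.95, adjusted p = 0.00153). All 3 were low in both day 1 libraries and far higher in both day 2 libraries, and all 3 kept their call. Il4i1, a secreted amino acid oxidase, rose from 107 and 95.5 CPM to 2061 and 1390 CPM (4.09 ± 0.69, adjusted p = 0.00827, and up to 0.0837 without WT day 1 replicate 2). Cd83 and Tmem123, chosen after their values were seen, rose too. Cd83, a surface marker of mature dendritic cells, went from 14.5 and 36.9 CPM to 603 and 693 CPM (4.66 ± 0.69, adjusted p = 0.0046), and lost the call without WT day 1 replicate 1 (adjusted p = 0.0534). Tmem123 went from 181 and 226 CPM to 1965 and 1292 CPM (2.9997 ± 0.42) and kept its call. Ccl17, a chemokine with the same receptor as Ccl22, was already at 1411 and 2895 CPM at day 1 and stood at 2539 and 3739 CPM at day 2, where the days overlapped (adjusted p = 0.778). The actin bundler Fscn1, a mark of mature dendritic cells, stood at 24.5 and 22.2 CPM and then at 732 and 998 CPM, a wide gap that missed the threshold (5.21 ± 1.58, adjusted p = 0.0739). Without 1 library at a time, 7 to 16 of the 31 genes were called, and 7 were called each time. Of the maturation genes, 19 are also in another list used here.

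**Figure D2:**
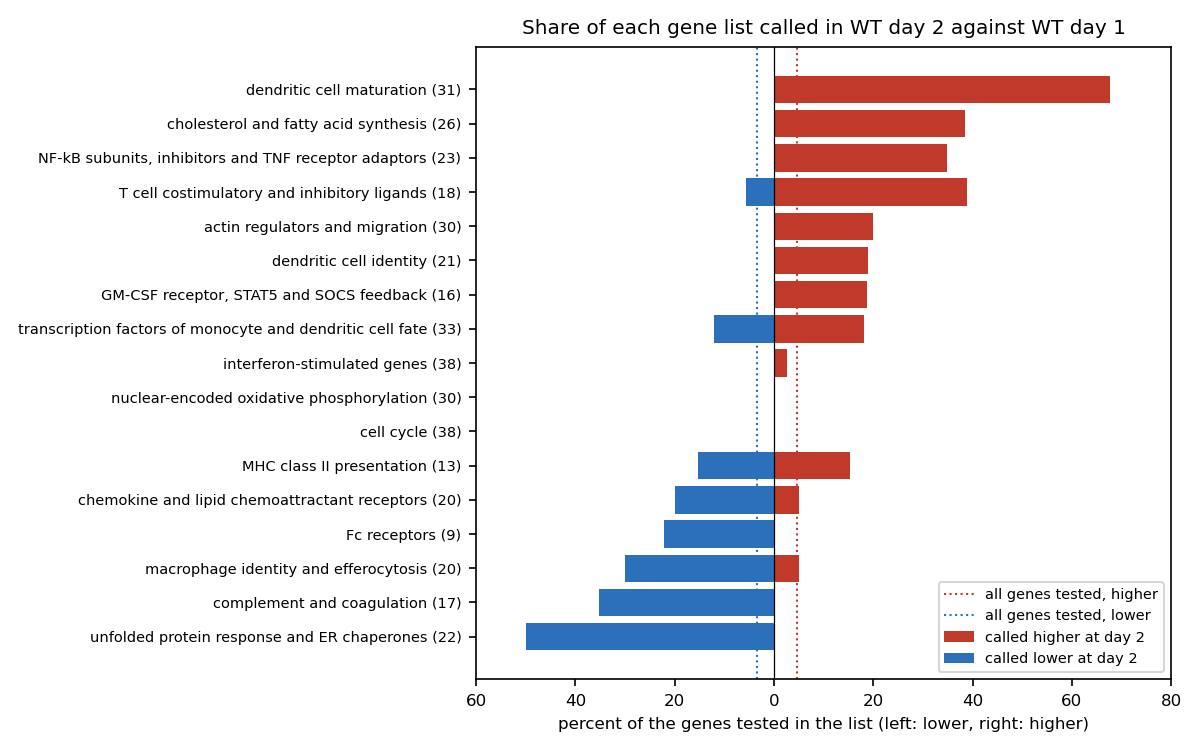
Bars give the percent of the tested genes of each list (number in brackets) that were called higher (right, red) or lower (left, blue) in 2 WT day 2 libraries against 2 WT day 1 libraries, and dotted lines give the share of all 14034 genes (4.67% higher, 3.51% lower). Maturation has the longest bar to the right (21 of 31) and endoplasmic reticulum chaperones the longest to the left (11 of 22).

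Among chemokine receptors, the one for lymph node homing rose and several for inflammatory sites fell. Ccr7, which guides dendritic cells to lymph nodes, stood at 10.1 and 7.34 CPM at day 1 and at 853 and 739 CPM at day 2 (6.51 ± 1.56, adjusted p = 0.031). Ccr2, which brings monocytes out of the bone marrow, stood at 1851 and 2492 CPM and then at 545 and 205 CPM (-2.53 ± 0.54, adjusted p = 0.0204). At day 1 Ccr2 was still at its level in monocytes, 1723 and 2768 CPM. The inflammatory receptor Ccr1 (90.9 and 191 CPM, then 38.2 and 30.0 CPM, -2.05 ± 0.42, adjusted p = 0.0178) fell, and so did the leukotriene B4 receptor Ltb4r1 (-2.19 ± 0.52, adjusted p = 0.0299). In these 4 genes the days did not overlap. None kept its call, with adjusted p up to 0.21 for Ltb4r1 without WT day 2 replicate 1 and up to 0.203 for Ccr7 without WT day 1 replicate 2. Of 20 receptors tested, 1 rose and 4 fell (median 0.73, and -0.08 to 1.47 without 1 library). Among 19 chemokine ligands 2 rose, Ccl22 and Cxcl16 (62.2 and 112 CPM, then 423 and 230 CPM, adjusted p = 0.0374, and up to 0.212 without WT day 2 replicate 1), and 2 fell. The falls were in Ccl2 and Ccl7, the monocyte attractants that signal through CCR2. Ccl2 went from 50.5 and 152 CPM to 14.0 and 10.1 CPM (-3.07 ± 0.67, adjusted p = 0.0222), and Ccl7 from 17.7 and 72.6 CPM to 1.96 and 3.79 CPM (-3.97 ± 0.84, adjusted p = 0.0199). Without WT day 1 replicate 2 their adjusted p was 0.145 and 0.142.

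Ligands for T cells rose on both the stimulating and the restraining side. Of 18 tested, 7 rose and 1 fell (median 1.43). The gene that fell was Icosl, named after its value was seen. Cd40, the receptor for T cell help, went from 25.1 and 35.6 CPM to 224 and 230 CPM (2.90 ± 0.35, adjusted p = 0.00183) and kept its call. The CD28 ligand Cd86 went from 32.3 and 40.2 CPM to 141 and 431 CPM (2.98 ± 0.46, adjusted p = 0.00534). Its 2 day 2 libraries differed widely, but both lay above day 1. Tnfsf4 (OX40 ligand) had a single read over both day 1 libraries and stood at 26.9 and 107 CPM at day 2, a ratio of 1590 with a 95% counting interval from 284.9 to 62880. Restraining ligands moved the same way. Pdcd1lg2 (PD-L2) went from 68.8 and 118 CPM to 405 and 407 CPM (2.12 ± 0.40, adjusted p = 0.0137), and Cd200 from 0.661 and 0.653 CPM to 30.9 and 68.4 CPM (6.22 ± 0.92, adjusted p = 0.00574). The poliovirus receptor relative Nectin2 rose from 17.3 and 15.6 CPM to 132 and 177 CPM (3.23 ± 0.48, adjusted p = 0.00454). Cd80, the other CD28 ligand, stood at 53.2 and 276 CPM at day 2 on either side of its day 1 values of 70.9 and 82.0 CPM. Apart from Cd40, those named here that rose lost their call without at least 1 library, with adjusted p up to 0.11 for Pdcd1lg2 without WT day 1 replicate 1.

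Of 23 NF-kB genes tested, 8 rose and none fell (median 0.69). Members of the noncanonical branch were among those that rose, and so were Rel and Traf1. Map3k14, the kinase NIK that starts that branch, stood at 55.2 and 37.9 CPM in monocytes and lower, at 33.0 and 25.5 CPM, at day 1. It then stood at 389 and 342 CPM at day 2 (3.64 ± 0.39, adjusted p = 0.000958). Rel, the subunit c-Rel whose promoter is shown above, went from 72.9 and 71.2 CPM to 618 and 534 CPM (2.9995 ± 0.32, adjusted p = 0.000969). Traf1, an adaptor of TNF family receptors, went from 63.5 and 67.5 CPM to 362 and 425 CPM (2.59 ± 0.26, adjusted p = 0.000751). These 3 kept their call. Nfkb2 (177 and 121 CPM, then 435 and 551 CPM, 1.73 ± 0.33, adjusted p = 0.0135) and Relb (64.3 and 58.3 CPM, then 286 and 209 CPM, 2.01 ± 0.39, adjusted p = 0.0152), the pair below NIK in that branch, rose as well. Without WT day 1 replicate 2 their adjusted p was 0.118 and 0.116. The subunit Nfkb1 stood at 491 and 378 CPM and then at 835 and 1012 CPM (1.09 ± 0.31), which missed the threshold (edgeR adjusted p = 0.0572). The inhibitor Nfkbia (adjusted p = 0.29) did not pass either. Tnf, an inflammatory cytokine, fell from 39.8 and 68.1 CPM to 11.5 and 16.7 CPM (-1.94 ± 0.43, edgeR adjusted p = 0.0237). It lost its call without WT day 2 replicate 1. Of the 22 inflammatory cytokine genes tested it was the 1 that fell, while 2 rose. In that list 19 genes had a positive change, and the median was 1.36. NF-kB activity was not tested.

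Some genes below the receptors of the culture cytokines changed in transcript level. Stat5a, the transcription factor below the GM-CSF receptor, rose from 88.3 and 67.3 CPM to 531 and 537 CPM (2.78 ± 0.32, adjusted p = 0.00155) and kept its call. Stat5b went from 75.2 and 60.0 CPM to 165 and 187 CPM (1.38 ± 0.31, adjusted p = 0.0241), and the STAT5 target and inhibitor Socs2 from 79.3 and 119 CPM to 364 and 652 CPM (2.36 ± 0.51, adjusted p = 0.0216). The shared receptor chain Csf2rb stood at 2578 and 1874 CPM and then at 2860 and 1937 CPM, with overlap between the days, and Jak2 (adjusted p = 0.148) did not pass. In this list 3 of 16 rose and none fell (median -0.22, and -0.46 to 0.03 without 1 library). Of 23 genes of IL-4 and alternative activation, 4 rose and 1 fell (median -0.18, and -0.35 to 0.02). Jak3, which pairs with the IL-4 receptor, went from 9.002 and 6.61 CPM to 29.8 and 34.5 CPM (2.04 ± 0.45, adjusted p = 0.0227), and the transglutaminase Tgm2 from 2.39 and 3.18 CPM to 22.8 and 54.1 CPM (3.78 ± 0.75, adjusted p = 0.0158). The lectin Mgl2 stood at 2153 and 1280 CPM at day 1 and at 946 and 2134 CPM at day 2, so the days overlapped. Except for Stat5a, the genes named here that passed lost their call without at least 1 library, with adjusted p up to 0.179 for Stat5b without WT day 1 replicate 2.

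**Figure D3:**
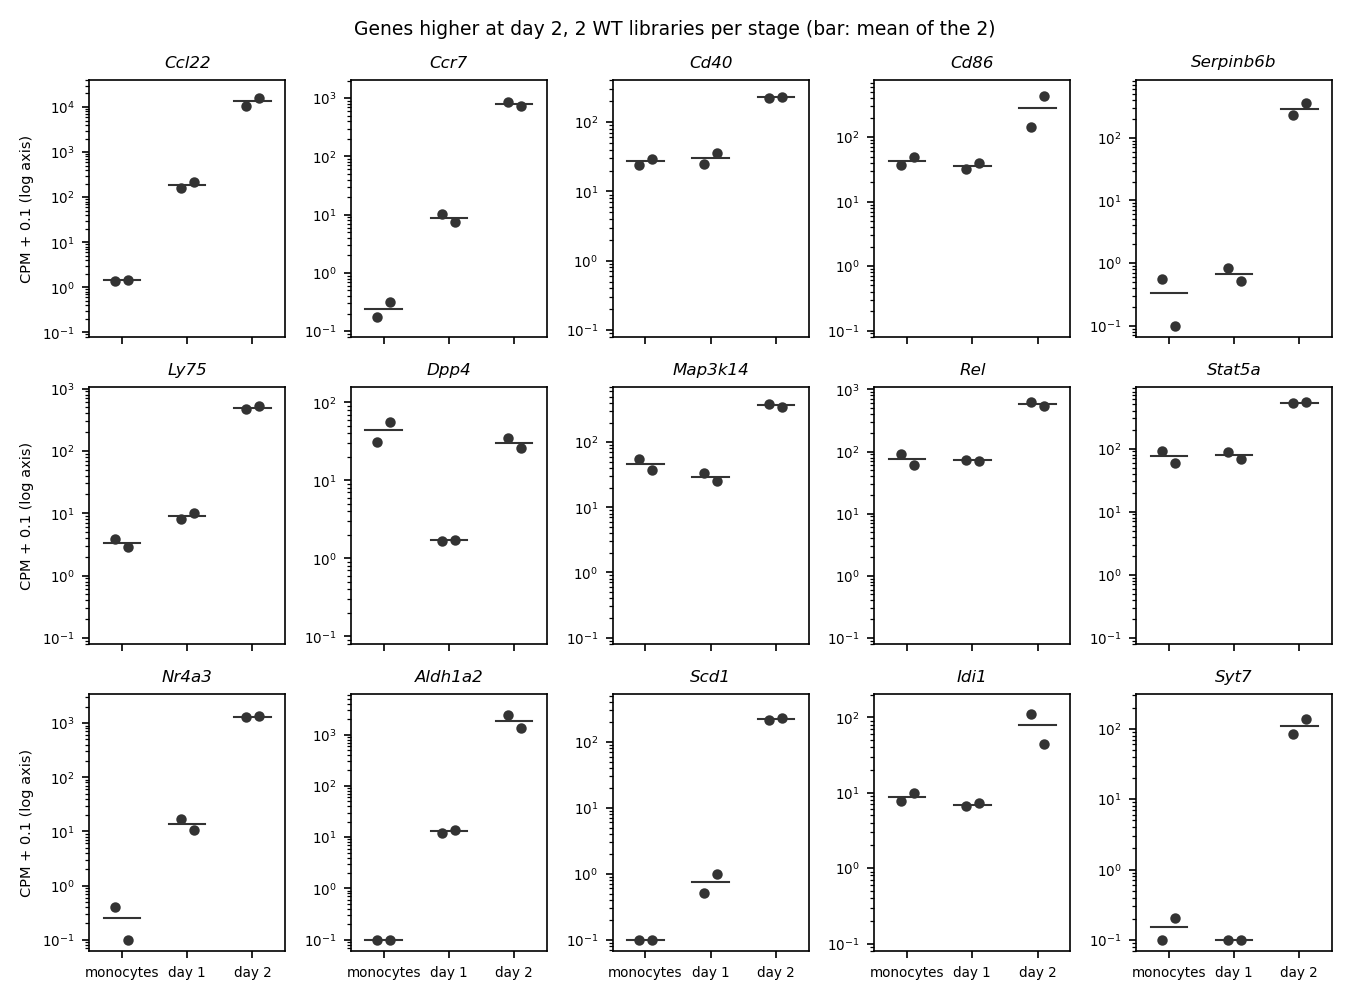
Each panel shows 1 gene in WT monocytes, day 1 and day 2 (CPM + 0.1, log axis), with a point per library and a bar at the mean of 2. Ccr7, Nr4a3 and Aldh1a2 climb at both steps, Cd40, Rel and Stat5a are level to day 1 and then climb, and Dpp4 dips at day 1.

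Some genes were silent at day 1 by read count and clear at day 2. Of the genes called higher, 41 had 0 reads in both day 1 libraries, and 25 of those had a mean of at least 5 CPM at day 2. Syt7, a calcium sensor of vesicle fusion, stood at 83.8 and 137 CPM at day 2, at least 898.5-fold above the level that 3 reads over both day 1 libraries would give (0.123 CPM). Adam23, a protease-like surface protein that binds integrins, stood at 23.6 and 33.0 CPM (at least 229.7-fold higher). Serpinb9b stood at 17.0 and 35.2 CPM (at least 211.8-fold higher), and Bcl2l14, a BCL2 family member, at 41.5 and 15.05 CPM (at least 229.7-fold higher). These 4 kept their call. The secreted chaperone Clu (128 and 31.1 CPM), the class Ib MHC gene H2-M2 (135 and 20.7 CPM) and Plppr4 (43.7 and 16.2 CPM) had 0 reads at day 1 as well. They lost their call without at least 1 library (adjusted p up to 0.136, for H2-M2 without WT day 1 replicate 2). The day 2 values of Clu and H2-M2 differed widely between the 2 libraries. Icos, better known as a T cell receptor, stood at 4.03 and 24.2 CPM. It was called at an adjusted p of 0.0223, and at 0.202 without WT day 2 replicate 2. As given above, the day 2 libraries held more genes with few reads than the day 1 libraries, and the part of that in these values was not tested. Serpinb9b and H2-M2 have close relatives in their families, and reads that map to several places were not counted, so their levels are uncertain. No gene called lower had 0 reads in both day 2 libraries.

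Of 21 genes of dendritic cell identity tested, 4 rose and none fell (median 0.94). The peptidase Dpp4 dipped and returned, with 31.3 and 56.4 CPM in monocytes, 1.57 and 1.63 CPM at day 1 and then 34.8 and 25.7 CPM (4.23 ± 0.47, adjusted p = 0.00132), and it kept its call. Irf8, a transcription factor of monocytes and conventional dendritic cells, had the same shape, with 560 and 484 CPM, then 12.3 and 16.2 CPM and then 263 and 157 CPM (3.88 ± 1.00, adjusted p = 0.0406). The cytokine receptor Flt3 stood at 13.6 and 21.8 CPM in monocytes, at 0 and 0.979 CPM at day 1 and at 13.1 and 7.84 CPM at day 2 (4.39 ± 1.05, adjusted p = 0.0313). The integrin Itgae (CD103) rose from 9.41 and 4.08 CPM to 31.2 and 115 CPM (3.43 ± 0.87, adjusted p = 0.0413). Without 1 library, adjusted p reached 0.212 for Irf8, 0.117 for Flt3 and 0.246 for Itgae. Irf4, which monocyte-derived dendritic cells need, was at 760 and 552 CPM and then at 559 and 760 CPM. Among C-type lectins, which take up glycosylated antigen, 3 of 23 rose and 1 fell (median -0.25, and -1.11 to 0.004 without 1 library). Ly75 (DEC-205) went from 8.09 and 9.96 CPM to 474 and 520 CPM (5.78 ± 0.47, adjusted p = 0.00031), and it kept its call. Cd207 (langerin), with 0 reads at day 1 and 1.495 and 5.56 CPM at day 2, passed at an adjusted p of 0.0413 and lost the call without WT day 1 replicate 2 (0.164).

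The few antigen presentation genes that were called went both ways. The MHC class II chaperone genes H2-DMa (874 and 700 CPM, then 199 and 243 CPM, -1.83 ± 0.35, adjusted p = 0.0146) and H2-DMb1 (791 and 697 CPM, then 173 and 152 CPM, -2.19 ± 0.31, adjusted p = 0.00371), whose product loads peptide, fell together, and H2-DMb1 kept its call. H2-Oa, part of the inhibitor of that loading, had 0 reads at day 1 and reached 5.06 and 7.71 CPM (at least 51.87-fold higher). It kept its call. The invariant chain Cd74 (6183 and 4295 CPM, then 11093 and 10411 CPM) showed 2 days apart without passing the test (1.04 ± 0.34, adjusted p = 0.0832), and H2-Aa (1812 and 1806 CPM, then 3573 and 2786 CPM) did not pass either (adjusted p = 0.269). Of 13 class II genes, 2 rose and 2 fell (15.4% each way, median 0.73), where 4.67% of all genes rose and 3.51% fell. Of 16 class I genes, 2 rose (12.5%), the nonclassical H2-T23 (adjusted p = 0.0462) and H2-Q7 (adjusted p = 0.0456), and 2 fell (12.5%), the chaperones Calr and Pdia3. H2-Q7 has near-identical neighbours in its family, so its count is uncertain. Cst3, the cathepsin inhibitor cystatin C, went from 804 and 870 CPM to 3298 and 5243 CPM (2.35 ± 0.51, adjusted p = 0.0216). It was the 1 gene that rose among 26 of cathepsins and lysosome, where 1 fell (Cd68, adjusted p = 0.048). These shares, 3.85% each way, were near those of all genes. In these lists the genes named as changed, other than H2-DMb1 and H2-Oa, lost their call without at least 1 library, with adjusted p up to 0.125 for H2-DMa, 0.23 for H2-Q7, 0.137 for Cst3 and 0.304 for Cd68.

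Transcription factors of monocyte and dendritic cell fate changed in both directions, with 6 of 33 higher and 4 lower (median -0.08, and -0.21 to 0.27 without 1 library). Zeb1, a repressor with roles in dendritic cells, rose from 4.46 and 7.02 CPM to 64.9 and 75.2 CPM (3.61 ± 0.34, adjusted p = 0.000617) and kept its call. Stat4, which acts below IL-12 and type I interferon, went from 1.73 and 0.408 CPM to 95.8 and 84.5 CPM (6.38 ± 1.14, adjusted p = 0.0109). Nfil3 went from 45.4 and 31.1 CPM to 127 and 148 CPM (1.84 ± 0.27, adjusted p = 0.00429). In the other direction, Id1, an inhibitor of E proteins, went from 75.7 and 73.0 CPM to 2.42 and 9.36 CPM (-3.66 ± 0.67, adjusted p = 0.0122). The myeloid factor Cebpe went from 5.86 and 12.2 CPM to 1.73 and 2.02 CPM (-2.26 ± 0.51, adjusted p = 0.0243). Stat4, Nfil3, Id1 and Cebpe lost their call without at least 1 library, with adjusted p of up to 0.105, 0.0602, 0.0685 and 0.17. Spi1 (PU.1), the master factor of myeloid cells, stood at 589 and 492 CPM and then at 326 and 277 CPM, which missed the threshold (-0.84 ± 0.25, adjusted p = 0.0631).

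Macrophage, Fc receptor and complement genes that passed the test mostly fell. The counts overlap, because Fcgr1 is in both the macrophage and the Fc receptor list. Likewise, C1qa, C1qb and C1qc are in both the macrophage and the complement list. Of 20 macrophage genes 6 fell and 1 rose (median -0.56, and -1.66 to -0.0039 without 1 library), of 9 Fc receptor genes 2 fell and none rose (median -1.03, and -1.33 to 0.17), and of 17 complement and coagulation genes 6 fell and none rose (median -0.24), where 3.51% of all genes fell. The inhibitory IgG receptor Fcgr2b went from 1319 and 1913 CPM to 277 and 332 CPM (-2.41 ± 0.32, adjusted p = 0.00313) and kept its call. The high-affinity IgG receptor Fcgr1 (CD64), a macrophage marker, went from 115 and 162 CPM to 5.06 and 16.8 CPM (-3.67 ± 0.81, adjusted p = 0.0236). The mannose receptor Mrc1, often used as a mark of IL-4 treated macrophages, went from 245 and 132 CPM to 43.1 and 23.1 CPM (-2.51 ± 0.49, adjusted p = 0.0148). The complement subunit C1qa went from 43.5 and 65.9 CPM to 9.20 and 8.85 CPM (-2.60 ± 0.56, adjusted p = 0.0215), and C1qb (-1.78 ± 0.44, adjusted p = 0.0351) and C1qc (-1.84 ± 0.43, adjusted p = 0.0278) moved with it. Properdin (Cfp) went from 1060 and 1021 CPM to 455 and 443 CPM (-1.21 ± 0.32, adjusted p = 0.0439). The one macrophage gene that rose was Gpnmb, a glycoprotein of lysosomes, from 15.6 and 25.4 CPM to 346 and 94.6 CPM (3.43 ± 0.84, adjusted p = 0.0347). Csf1r, the receptor of the macrophage growth factor, was at 1281 and 834 CPM and then at 940 and 378 CPM, with overlap. The macrophage marker Adgre1 also overlapped, at 103 and 161 CPM and then at 164 and 77.4 CPM. Mertk, another such marker, went the other way, from 1.82 and 5.55 CPM to 10.5 and 12.9 CPM. It did not pass the test (1.66 ± 0.61, edgeR adjusted p = 0.1235). Besides Fcgr2b, the genes named in these lists that passed lost their call without at least 1 library, with adjusted p up to 0.145 for Fcgr1, 0.107 for Mrc1, 0.226 for C1qb and 0.237 for Cfp. Of 20 classical monocyte genes 2 fell, Ccr2 among them, and none rose (median -1.05).

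The largest falls on the log2 scale were in genes of mixed function. Qpct, glutaminyl cyclase, which modifies the end of chemokines such as CCL2, went from 203 and 231 CPM to 6.21 and 13.4 CPM (-4.47 ± 0.70, adjusted p = 0.00554). The receptor Klra2 went from 37.8 and 62.1 CPM to 4.37 and 0.632 CPM (-4.30 ± 0.94, adjusted p = 0.0218, and up to 0.113 without WT day 2 replicate 2). The immunoglobulin-like receptor Lilra6 went from 120 and 134 CPM to 11.7 and 5.44 CPM (-3.89 ± 0.51, adjusted p = 0.00286). Klra2 and Lilra6 belong to families with close copies, so their counts are uncertain. Hacd1, an enzyme of very long chain fatty acids, went from 24.4 and 25.9 CPM to 0.805 and 2.15 CPM (-4.09 ± 0.82, adjusted p = 0.0168, and up to 0.116 without WT day 2 replicate 1). Rap1gap2, which turns off the GTPase RAP1, went from 20.7 and 15.8 CPM to 1.15 and 1.64 CPM (-3.71 ± 0.56, adjusted p = 0.00504). Magohb, a subunit of the exon junction complex, went from 43.9 and 79.3 CPM to 4.49 and 3.92 CPM (-3.87 ± 0.58, adjusted p = 0.00504). Trmt61a, a tRNA methyltransferase, was tight in both groups, with 42.4 and 42.4 CPM and then 3.91 and 3.92 CPM (-3.43 ± 0.42, adjusted p = 0.00183). Qpct, Lilra6, Rap1gap2, Magohb and Trmt61a kept their call.

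**Figure D4:**
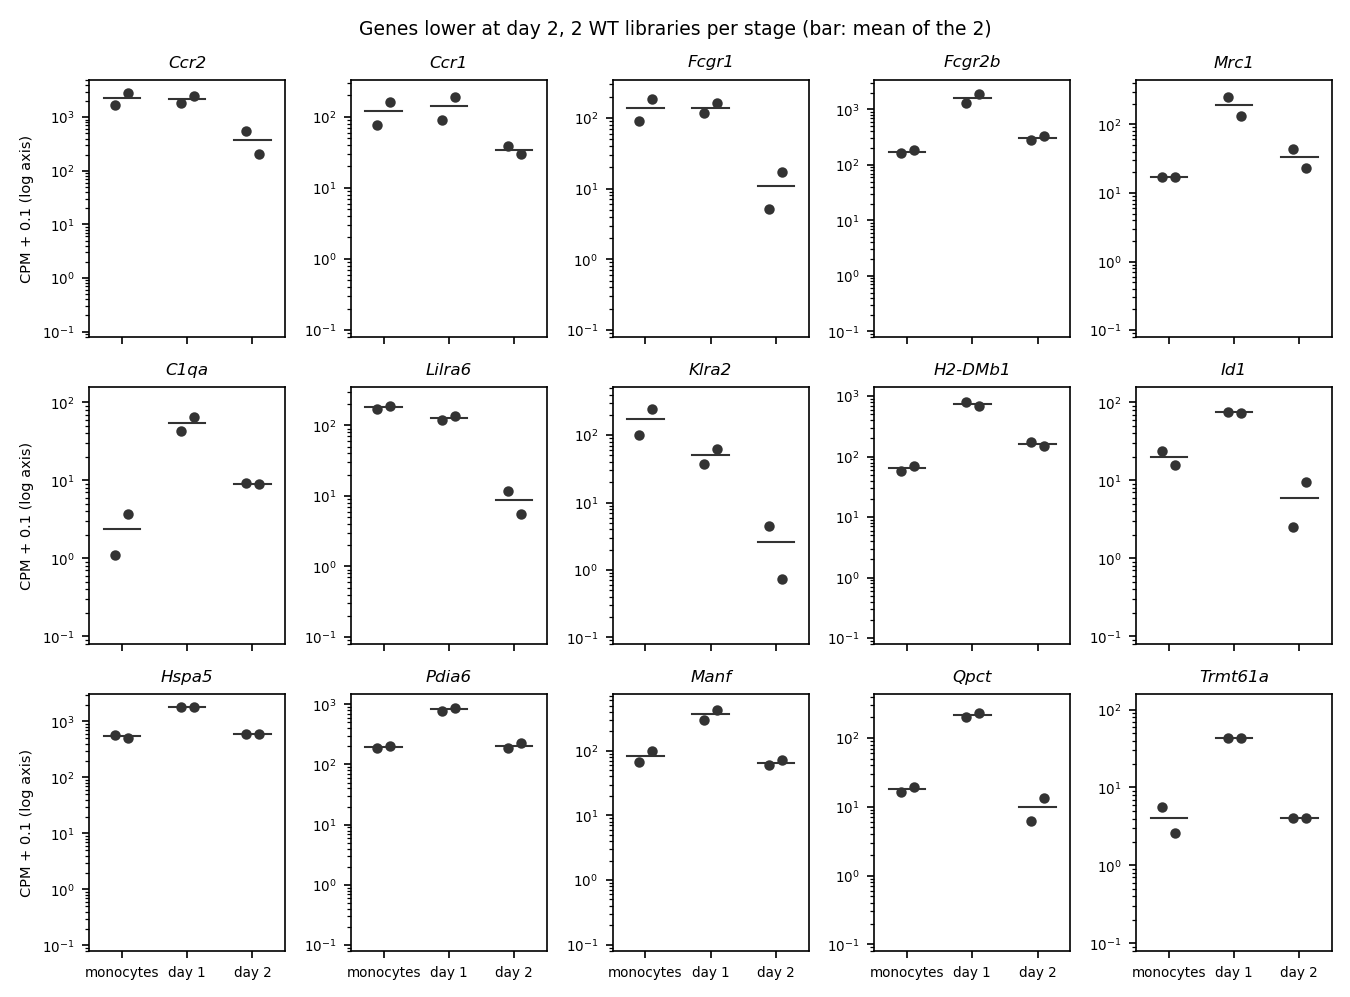
Each panel shows 1 gene in WT monocytes, day 1 and day 2 (CPM + 0.1, log axis), with a point per library and a bar at the mean of 2. Ccr2 and Fcgr1 are level up to day 1 and then drop, whereas C1qa, Hspa5, Pdia6, Manf, Qpct and Trmt61a peak at day 1.

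Of 22 genes of the unfolded protein response and its chaperones, 11 fell and none rose (median -1.17). Hspa5 (BiP), the main chaperone there, went from 1808 and 1836 CPM to 595 and 593 CPM (-1.62 ± 0.29, adjusted p = 0.0115), close to its level of 569 and 510 CPM in monocytes. Hsp90b1 went from 1616 and 2079 CPM to 672 and 591 CPM (-1.55 ± 0.33, adjusted p = 0.0205), and calreticulin (Calr) from 2433 and 1805 CPM to 957 and 856 CPM (-1.23 ± 0.29, adjusted p = 0.0309). The disulfide isomerase Pdia6 went from 786 and 870 CPM to 187 and 224 CPM (-2.01 ± 0.30, adjusted p = 0.00504), and the secreted stress factors Manf (296 and 433 CPM, then 59.3 and 71.8 CPM) and Creld2 (212 and 255 CPM, then 39.4 and 51.3 CPM) moved by -2.47 ± 0.44 and -2.36 ± 0.43. Summed over the list, the chaperones took 12550 and 13090 CPM in the day 1 libraries, in order of size, and 5438 and 5520 CPM in the day 2 libraries. The transcription factor Xbp1, which drives part of this programme, stood at 436 and 479 CPM and then at 251 and 349 CPM (adjusted p = 0.314). No gene of the list kept its call, since 0 to 2 were called without 1 library. For Hspa5 the adjusted p then rose to 0.0922 at most, and the change stayed between -1.62 and -1.59.

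Of 26 genes of sterol and fatty acid synthesis tested, 10 rose and none fell (median 1.33). Scd1, the desaturase that makes monounsaturated fatty acids, had 0 reads in monocytes, stood at 0.413 and 0.898 CPM at day 1 and reached 218 and 228 CPM at day 2 (8.39 ± 0.47, adjusted p = 0.000151). Idi1, which makes the isoprenoid unit for cholesterol, went from 6.61 and 7.10 CPM to 111 and 44.1 CPM (3.50 ± 0.45, adjusted p = 0.00258). Both kept their call. Along the same pathway, Hmgcs1 went from 53.7 and 56.3 CPM to 194 and 128 CPM (1.55 ± 0.30, adjusted p = 0.0144), squalene synthase (Fdft1) from 23.3 and 9.38 CPM to 82.5 and 63.6 CPM (2.16 ± 0.42, adjusted p = 0.0147) and Sc5d from 11.7 and 6.12 CPM to 54.6 and 31.0 CPM (2.26 ± 0.43, adjusted p = 0.0145). Without WT day 1 replicate 2 their adjusted p was at most 0.114. The regulator Srebf2 (adjusted p = 0.182) and Scd2 (adjusted p = 0.0537) did not pass. Without 1 library, 2 to 7 genes of the list were called. Retinoid genes are few here, but Aldh1a2, which makes retinoic acid, showed one of the large gains in CPM, from 0 in both monocyte libraries over 12.2 and 13.7 CPM to 2377 and 1360 CPM (7.17 ± 1.14, adjusted p = 0.00801, and up to 0.0878 without WT day 1 replicate 1). The retinoid receptor partner Rxra went from 194 and 114 CPM to 40.0 and 45.9 CPM (-1.84 ± 0.41, adjusted p = 0.0243, and up to 0.168 without WT day 2 replicate 1). In the list of 12 tested, 2 rose and 1 fell (median 0.86).

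Genes of movement and survival changed in part. Of 30 actin regulators 6 rose and none fell (median 0.01, and -0.10 to 0.26 without 1 library). Marcksl1 went from 42.3 and 46.6 CPM to 428 and 514 CPM (3.40 ± 0.48, adjusted p = 0.00365), and Marcks from 86.7 and 70.0 CPM to 699 and 530 CPM (2.97 ± 0.46, adjusted p = 0.0053). Both encode substrates of protein kinase C that bind actin, and both lost the call without 1 library (adjusted p up to 0.0505 for Marcksl1 without WT day 1 replicate 1, and 0.069 for Marcks when replicate 2 of that day was left out). Of 15 integrins 3 rose and none fell (median 0.57, and -0.016 to 1.16 without 1 library), with Itgb3 going from 5.29 and 3.26 CPM to 61.0 and 25.2 CPM (3.33 ± 0.55, adjusted p = 0.00737, and up to 0.0814 without WT day 1 replicate 2). In the BCL2 family and apoptosis list 4 of 21 rose and 2 fell (median 0.31). The death-promoting Bmf went from 2.56 and 5.14 CPM to 128 and 136 CPM (5.10 ± 0.70, adjusted p = 0.00332) and kept its call. Cflar, which blocks the start of the caspase cascade, also rose (1.99 ± 0.45, adjusted p = 0.0242, and up to 0.151 without WT day 1 replicate 1). The survival gene Bcl2 went from 54.1 and 47.3 CPM to 13.5 and 14.7 CPM (-1.85 ± 0.28, adjusted p = 0.00458, and up to 0.0598 without WT day 2 replicate 1), and its opponent Bax from 200 and 287 CPM to 104 and 105 CPM (-1.21 ± 0.28, adjusted p = 0.0257, and up to 0.179 without WT day 1 replicate 2).

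Other programmes showed few called genes or none. Of all genes 4.67% rose and 3.51% fell, and several small lists lay above these shares. None of 38 cell cycle genes was called by edgeR (median -0.17, and -0.53 to 0.23 without 1 library), against 3 at an unadjusted p under 0.05 and 1 by DESeq2, with the proliferation marker Mki67 at 421 and 212 CPM and then at 338 and 369 CPM. None of 30 nuclear genes of oxidative phosphorylation was called either, against 12 at an unadjusted p under 0.05, all lower, and 6 by DESeq2, and their median was -0.70. Of 38 interferon-stimulated genes 1 rose (Stat2, 2.43 ± 0.55, adjusted p = 0.0243), and the median was 0.71. Of 23 genes of glycolysis and hypoxia 1 rose and 1 fell (median -0.15), the glucose transporter Slc2a1 going from 151 and 133 CPM to 74.4 and 58.5 CPM (-1.09 ± 0.27, adjusted p = 0.0369). In 6 further lists the counts were small, but the shares that rose were above that of all genes. Nonclassical monocyte genes had 2 of 14 higher (14.3%) and 0 lower. Pattern recognition receptors had 2 of 20 higher (10.0%) and 1 lower (5.0%). Inflammatory cytokines had 2 of 22 higher (9.09%) and 1 lower (4.55%). Immediate early genes had 2 of 25 higher (8.0%) and 1 lower (4.0%). Matrix proteases and their inhibitors had 3 of 17 higher (17.6%) and 1 lower (5.88%). Lipid uptake and storage, with 1 of 19 higher (5.26%) and 0 lower, was near the share of all genes. Leaving out 1 library ended the calls of Stat2 (adjusted p up to 0.153) and Slc2a1 (up to 0.269).

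Markers of other cells differed in level. Of 10 lymphoid markers tested and 11 of mast cells, basophils and eosinophils none was called (1 and 0 at an unadjusted p under 0.05, and none by DESeq2), and their sums were 79.0 to 96.6 CPM and 22.96 to 30.5 CPM at day 1 and 65.6 to 85.1 CPM and 29.3 to 33.5 CPM at day 2. Of 20 neutrophil markers 2 fell, Fcnb and Cebpe, and the sum was 1317 to 2397 CPM at day 1 and 583.3 to 1380 CPM at day 2. The neutrophil chemokine receptor Cxcr2 stood at 1.15 and 1.48 CPM in monocytes, at 217 and 189 CPM at day 1 and then at 158 and 315 CPM (adjusted p = 0.938). Of 10 erythroid and platelet markers 5 rose. The platelet chemokine Pf4 stood at 1.69 and 2.43 CPM in monocytes, at 21.4 and 93.8 CPM at day 1 and then at 14.95 and 11.9 CPM (adjusted p = 0.0813). Car2 went from 1.98 and 3.26 CPM to 48.9 and 97.4 CPM (4.79 ± 0.65, adjusted p = 0.00314) and kept its call. The other 4 are globin genes, which had 0 to 3 reads over both day 1 libraries. The globin Hbb-bs stood at 36.4 and 107 CPM in monocytes, at 0.0826 and 0.163 CPM at day 1 and at 35.0 and 9.23 CPM at day 2 (adjusted p = 0.0059, and up to 0.0735 without WT day 1 replicate 1). Of 7 stromal and endothelial markers 1 rose, and of 5 sex genes none was called (1 at an unadjusted p under 0.05, and 1 by DESeq2). The part of such cells in the results was not tested.

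The same interval was available in Nr4a3 KO cells, where edgeR called 211 genes higher (1.5%) and 76 lower (0.542%). A larger count of calls in WT does not show a larger change, so the difference between the genotypes was tested for each gene. At the threshold, edgeR called 0 genes (0.0%), with 340 genes at an unadjusted p under 0.05. Of these, 260 had the more positive log2 change in WT. That is not always the larger change. Bcl2 fell more in WT (-1.85 ± 0.28) than in the KO (-0.57 ± 0.27) and is not among the 260. For the difference between the genotypes DESeq2 called 26. The smallest adjusted p, 0.0685, was for Slc4a8, a sodium bicarbonate transporter that stood at 1.32 and 0.490 CPM in WT day 1 and 97.3 and 89.5 CPM in WT day 2, and at 0.779 and 0.766 CPM and then 0.500 and 0.327 CPM in the KO. With the experiment as a replicate block its adjusted p was 0.0382, and 2 genes were called, Slc4a8 and Map3k14. Map3k14 stood at 34.8 and 20.4 CPM and then at 55.0 and 33.4 CPM in the KO, where WT day 2 had 389 and 342 CPM (difference of 2.96 ± 0.50, adjusted p = 0.234 without the block). The signalling adaptor Samsn1 moved by 3.07 ± 0.50 in WT and by -1.07 ± 0.48 in the KO (difference of 4.14 ± 0.69, adjusted p = 0.234). Ogfrl1 (3.55 ± 0.33 in WT, 0.63 ± 0.30 in the KO) and Atmin (2.69 ± 0.26 and 0.34 ± 0.25) had adjusted p-values of 0.219 for the difference. The 15 genes with the smallest p all had the larger change in WT. Slc4a8, Ogfrl1, Atmin, Samsn1 and Cytip were chosen after their values were seen. For genes with large WT changes, the KO changes stand beside them without a test of likeness. The KO change was 6.45 ± 0.69 for Ccl22, 3.32 ± 0.36 for Cd40, 2.24 ± 0.26 for Traf1, 5.92 ± 0.54 for Serpinb9, 4.58 ± 0.45 for Ly75, -3.84 ± 0.51 for Lilra6 and -3.69 ± 0.67 for Qpct. It was 1.14 ± 0.96 for Aldh1a2, 2.80 ± 1.33 for Ccr7 and 1.08 ± 0.33 for Cytip. The library labelled KO day 1 replicate 1 stood apart from the other day 1 libraries on the first principal component (1.59, against 38.4 to 46.7). It held 6.58 CPM at Nr4a3 where KO day 1 replicate 2 had 0, and 1.21 CPM of Cxcr2 where that library had 142 CPM. Whether its label is right was not tested. Without it no gene was called for the difference, with or without the block, and without KO day 1 replicate 2 the number was 14.

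**Figure D5:**
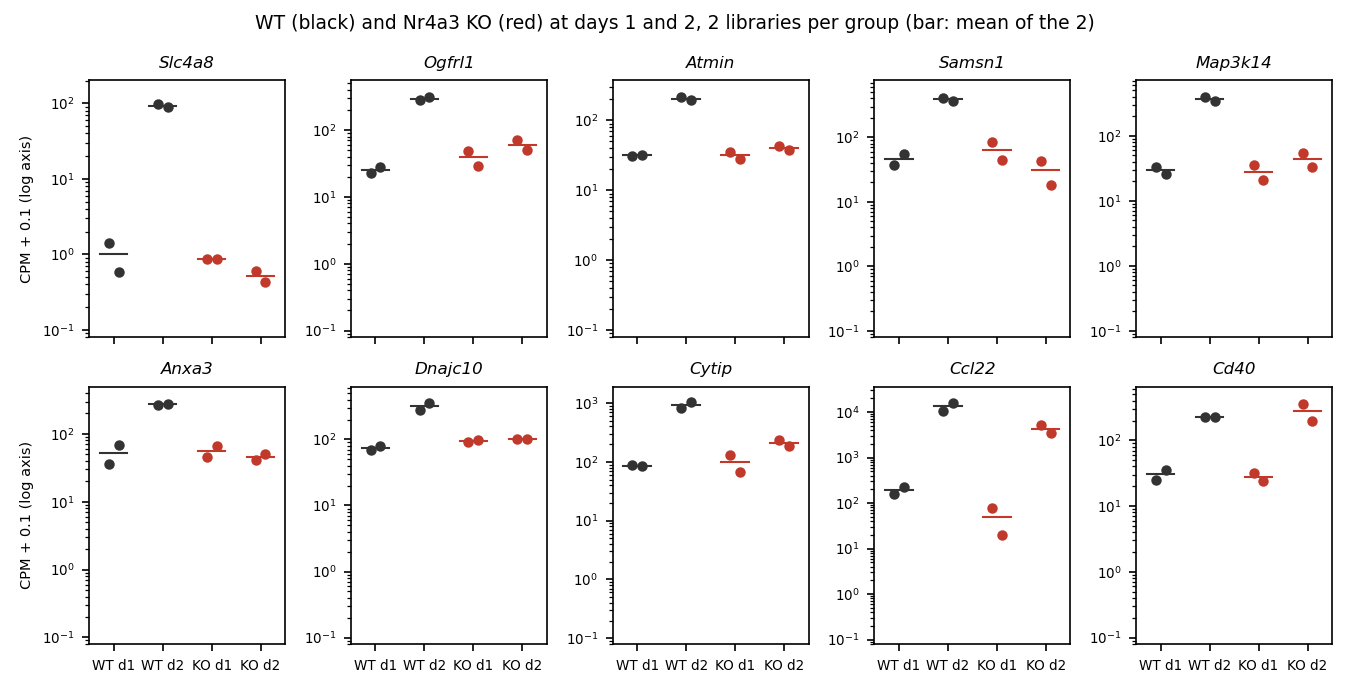
Points are single libraries of WT (black) and Nr4a3 KO (red) at days 1 and 2 (CPM + 0.1, log axis), and bars are means of 2. From Slc4a8 to Cytip the WT libraries climb by day 2, while the KO climbs less, as for Cytip, or falls, as for Samsn1. Ccl22 and Cd40 climb in both. Genes other than Map3k14, Ccl22 and Cd40 were picked for this plot after their values were seen.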

How the data were processed

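Poly(A) RNA was sequenced in 12 libraries from monocytes of WT and Nr4a3 KO mice. Per the labels' protocols, a stranded kit was used on 20 ng of RNA, followed by 16 cycles of PCR. Per the submitters' processing notes, Trimmomatic 0.35, STAR 2.5.1b and GRCm38 were used, while the release of the gene annotation was not stated there. The deposited values are read counts per gene, which the authors did not normalize, laid out as STAR writes gene counts. The column for reverse-stranded kits was used. Lines that name no gene (17.3% to 23.7% of the reads in the 4 libraries compared) stayed out of library sizes and tests, and multimapping reads were not counted. Symbols and coordinates came from GENCODE M21 (47224 of 47643 IDs matched), and promoters from a RefSeq table on GRCm38.p6 that held 9769 of the genes tested.

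Counts were fitted with edgeR 4.0.16 in R 4.3.3 (TMM, filterByExpr, robust quasi-likelihood, 1 mean per group over all 12 libraries, 6 residual degrees of freedom), and tests were two-sided. SE is the log2 change divided by the root of the F statistic. The fit was tested on simulated counts with known changes. A gene with no reads was given a limit of 3 reads over both libraries of a day, and intervals (95%) cover counting error only, since PCR copies were not removed by molecular identifiers. Depth is given with the results. Replicate libraries differed by more than sampling noise, with a chi-square per degree of freedom of 66.4 at day 1 and 42.7 at day 2. The labels gave groups and replicate numbers, and describe the replicates as independent experiments.

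The comparison, the 40 gene lists and the rule for named genes were chosen with earlier results of these data known. Among called genes with a mean of at least 5 CPM in the higher group and no overlap of days, the rule took the 15 largest log2 rises and falls and the 5 largest rises and falls in CPM. It left out predicted genes, ribosomal pseudogenes, receptor segments and sex genes. It added the NR4A genes and, of each list, up to 5 called members with the smallest adjusted p and up to 3 others with the highest CPM. Genes outside it are named as such, and fewer are printed. Some items are not reported here. Alternatives were upper-quartile and RLE normalization, dropping the filter on low counts, unstranded counts, DESeq2 1.42.0, fits on fewer groups, a replicate block, a shorter promoter window and leaving out each library. Leaving out 1 library leaves a group with 1 sample, which is assumed to vary like the others.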

Additional observations from a re-analysis of the deposited data

How the results depend on the processing

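The counts of genes higher and lower at day 2 in WT cells, 656 and 493, moved with the fit. They were 1314 and 783 with no filter on low counts, 1306 and 862 with DESeq2, 1127 and 914 with the 4 compared libraries alone, 334 and 142 with the 6 WT libraries alone, and 1324 and 1328 without the 2 libraries that stood apart. Leaving out 1 library of the 4 gave 109 to 234 higher and 45 to 64 lower, and of the 1149 genes called 170 to 276 were then called too. RLE normalization (710 and 423, with the median of all genes at 0.09), upper-quartile normalization (687 and 482), unstranded counts (632 and 482) and a filter at a mean of 5 CPM chosen after seeing the data (715 and 527) stayed within 1.5 times, as did the counts with a replicate block (875 and 621). The difference between WT and KO, with 0 genes called, gave 122 with no filter on low counts and 26 with DESeq2. The cause of these moves was not tested. Of the 118 genes printed as called, 24 were not called with the 6 WT libraries alone and 10 with the 4 libraries and a replicate block, against 4 without the libraries that stood apart, 3 of 117 with unstranded counts, 2 with DESeq2 (Cd207 and H2-M2), 2 with RLE (Cd68 and Cfp) and 1 each with upper-quartile normalization and no filter. With the 6 WT libraries alone 456 of all 1149 calls were shared. Of 48 medians of lists and families, 9 to 20 moved by more than the spread between libraries when 1 was left out. Without 1 library, 52 to 70 of the 118 kept their call.

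Same-numbered WT libraries of day 1 and day 2 come from different experiments (file-name dates), and their deviations from the group means correlated across genes at -0.03, so the numbers do not pair them. A fit of the 4 libraries with that replicate block gave the 875 and 621 genes above. WT and KO libraries of 1 day do share an experiment (correlation of 0.19 at day 1 and 0.66 at day 2). With the replicate block by experiment, 2 genes were called for the difference between the genotypes, and 0 when the library labelled KO day 1 replicate 1 was also left out, a fit chosen after seeing the data. Leaving out 1 library gave 0 to 14 genes for that difference.

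Among genes that did not pass, the sign turned for Irf4 (-0.0022 with the 4 libraries alone, -0.0011 with the replicate block, -0.0107 without the libraries that stood apart). It also turned when 1 WT library was left out, with ranges of -0.24 to 0.27 for Irf4, -0.53 to 1.88 for Cd80, -0.17 to 0.36 for Csf2rb, -0.87 to 0.34 for Mgl2, -0.26 to 0.75 for Mki67, -0.38 to 0.66 for Cxcr2, -0.10 to 0.94 for Nr4a1 and -0.53 to 0.0134 for Itgax.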

Other observations

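Some genes of ribosome and tRNA production were lower at day 2, in families grouped by gene name after the values were seen, where 3.51% of all genes fell. Of 25 tested Nop, Utp and Nol genes, which act in the nucleolus, 8 fell and none rose (median log2 change of -1.04). Nop58, a core protein of the particles that methylate ribosomal RNA, went from a mean of 245 CPM at day 1 to 43.4 CPM at day 2 (-2.50 ± 0.41, edgeR adjusted p = 0.00757), and its partner Nop56 moved by -2.03 ± 0.31. Nop58 was called in 1 and Nop56 in 3 of the 4 fits without 1 library, with adjusted p up to 0.0549 and 0.0554, both without WT day 2 replicate 1. Dkc1, which makes pseudouridine in ribosomal RNA, went from 137 and 158 CPM to 23.6 and 18.6 CPM (-2.80 ± 0.43, edgeR adjusted p = 0.00515) and Nolc1 from 214 and 165 CPM to 47.3 and 50.6 CPM (-1.95 ± 0.28, edgeR adjusted p = 0.00392). Both were called without each of the 4 libraries in turn. So were Mettl1, a tRNA methyltransferase (59.7 and 62.0 CPM, then 5.29 and 8.98 CPM), and the arginine methyltransferase Prmt5 (-1.88 ± 0.25). Of 20 cytosolic aminoacyl-tRNA synthetases 6 fell and none rose (median -0.69), and of 77 mitochondrial ribosomal protein genes 11 fell and none rose (median -0.87). Without any 1 of the 4 libraries no gene of these last 2 families was called, and RLE normalization called 3 and 6 lower. Of the nucleolar genes 0 to 2 were called without 1 library. Of 86 cytosolic ribosomal protein genes 1 fell and none rose (median -0.58). Myc, a transcription factor that drives this machinery, stood at 10.3 and 3.59 CPM in monocytes, 159 and 104 CPM at day 1 and then 14.3 and 18.3 CPM (-3.01 ± 0.49, edgeR adjusted p = 0.00737, and up to 0.0641 without WT day 2 replicate 1). Ribosomal protein genes took 4.50% and 7.19% of gene reads at day 1 and 3.69% and 4.02% at day 2, and the part of this difference between libraries in the falls was not tested.

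A further 7 genes that rose were picked singly after their values were seen, and other genes of their pathways were not tallied. The cyclic AMP phosphodiesterases Pde4b (35.4 and 42.3 CPM, then 148 and 164 CPM, 2.00 ± 0.24, edgeR adjusted p = 0.00157) and Pde4d (0.578 and 0.653 CPM, then 14.3 and 21.2 CPM, 4.83 ± 0.69) break down this messenger. The adenylyl cyclase Adcy6 (4.38 and 6.77 CPM, then 236 and 248 CPM, 5.44 ± 0.74) makes it, and Pkib (11.3 and 11.9 CPM, then 351 and 418 CPM, 5.05 ± 0.36, edgeR adjusted p = 0.000218) inhibits its kinase. These 4 were called without each of the 4 libraries in turn. So were Kynu, an enzyme of tryptophan breakdown (8.34 and 10.3 CPM, then 169 and 180 CPM), Mir155hg, the host transcript of a microRNA of activated myeloid cells (4.62 and 12.9 CPM, then 85.6 and 112 CPM), and Pdcd4, a brake on translation (3.30 and 5.30 CPM, then 123 and 226 CPM). In the KO the change was 1.93 ± 0.24 for Pde4b, 5.64 ± 0.75 for Pde4d, 2.30 ± 0.71 for Adcy6, 3.75 ± 0.34 for Pkib and 0.70 ± 0.60 for Pdcd4.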
